A study of Mus musculus with 3 samples.

Results

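The 32 genes described here carry out or control the synthesis of cholesterol and fatty acids under the SREBP transcription factors. They were taken as a fixed list of named genes, matched by symbol and Ensembl identifier, and all 32 were found among the 55536 Ensembl genes of the deposited tables, of which 22015 are protein-coding genes of the nuclear genome. By role they are 5 regulators, 8 enzymes from acetyl-CoA to squalene, 10 enzymes from squalene to cholesterol, 2 genes of sterol transport and esterification, and 7 enzymes of fatty acid synthesis. Total RNA-seq measured them in 3 biological replicates of primary macrophages grown from C57BL/6J mouse bone marrow, 10 minutes after 100 ng/ml of Lipid A, the membrane anchor of lipopolysaccharide that activates TLR4. RNA came from the cytosolic fraction, which is meant to hold RNA from outside the nucleus. The nuclear RNA Malat1 was still present, at 597, 383 and 304 TPM in replicates 1, 2 and 3, and the purity of the fraction was not tested. No genotype other than the strain is labelled, sex and age were not collected, and all 3 replicates carry 1 donor identifier. The labels do not say whether each replicate had its own animal or culture. Every test below therefore speaks only of these samples, and the spread between them may be technical. Untreated cells, other times and other fractions were not analysed here, so no value below is a response to Lipid A.

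SREBP proteins are made as precursors in the membrane of the endoplasmic reticulum. When membrane sterol is low, the escort protein SCAP carries them to the Golgi, where proteases release the part that enters the nucleus. When sterol is high, SCAP is held back by INSIG proteins. The factor encoded by Srebf2 mainly drives cholesterol genes, that from the 1c start of Srebf1 mainly fatty acid genes, and that from the 1a start both. They bind short sterol regulatory elements in promoters, usually beside sites for NF-Y, which binds CCAAT boxes, or SP1, which binds GC boxes. In macrophages the pathway sets membrane cholesterol and the supply of unsaturated fatty acids, and surplus cholesterol is esterified or exported.

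Promoter windows of RefSeq (build GRCm38.p6, whose coordinates are those of mm10), from 250 bases before to 50 bases after an annotated start, were given for 25 of the 32 genes in 33 windows. The stretch before the start is shown here for the alternative starts of Srebf1, for the pair Fasn and Acaca, for Insig2, for Mvd, a gene with a large difference between libraries, and for Hmgcs1, chosen after it was seen to hold the only sterol regulatory element found. None of the 7 stretches overlaps an exon of the M21 annotation on either strand. Each is written 5′ to 3′ on the gene's strand, with capitals for matches on either strand to the sterol regulatory element TCACNCCAC, the CCAAT box (ATTGG on the other strand) or the E-box CACGTG. Hmgcs1 is at chr13:119690101-119690350 (+), Mvd at chr8:122443423-122443672 (-), Insig2 at chr1:121332590-121332839 (-) and Fasn at chr11:120824548-120824797 (-), each outside the annotated gene. Acaca is at chr11:84195188-84195437 (+), inside an intron of the gene, before an internal start. The 1a start of Srebf1 follows chr11:60220628-60220877 (-), within the gene span because a noncoding transcript begins further upstream, and the 1c start follows chr11:60210472-60210721 (-), intronic to the 1a transcript.
Hmgcs1: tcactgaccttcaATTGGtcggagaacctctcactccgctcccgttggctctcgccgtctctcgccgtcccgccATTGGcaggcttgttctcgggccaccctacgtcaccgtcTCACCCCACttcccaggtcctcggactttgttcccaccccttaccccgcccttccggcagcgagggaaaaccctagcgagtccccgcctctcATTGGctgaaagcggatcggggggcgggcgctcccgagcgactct
Mvd: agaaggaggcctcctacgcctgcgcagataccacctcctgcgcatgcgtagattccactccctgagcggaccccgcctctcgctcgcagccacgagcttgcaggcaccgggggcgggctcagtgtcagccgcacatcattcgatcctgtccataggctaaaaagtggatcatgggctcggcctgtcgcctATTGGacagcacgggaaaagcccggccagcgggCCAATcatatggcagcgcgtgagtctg
Insig2: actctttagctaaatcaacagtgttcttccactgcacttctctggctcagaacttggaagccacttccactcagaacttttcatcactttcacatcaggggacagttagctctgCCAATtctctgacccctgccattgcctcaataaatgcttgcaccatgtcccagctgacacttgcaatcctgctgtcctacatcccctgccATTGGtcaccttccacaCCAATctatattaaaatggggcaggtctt
Fasn: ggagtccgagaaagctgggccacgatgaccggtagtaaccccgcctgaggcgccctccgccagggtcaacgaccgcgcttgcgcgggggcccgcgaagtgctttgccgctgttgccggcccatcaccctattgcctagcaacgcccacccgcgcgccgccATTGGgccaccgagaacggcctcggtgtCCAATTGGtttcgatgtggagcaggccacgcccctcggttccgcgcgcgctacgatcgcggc
Acaca: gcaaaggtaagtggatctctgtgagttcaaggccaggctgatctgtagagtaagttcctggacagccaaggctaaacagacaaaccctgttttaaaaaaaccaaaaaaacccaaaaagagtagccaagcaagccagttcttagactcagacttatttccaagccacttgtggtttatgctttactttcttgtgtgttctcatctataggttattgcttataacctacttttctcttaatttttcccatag
Srebf1 1a start: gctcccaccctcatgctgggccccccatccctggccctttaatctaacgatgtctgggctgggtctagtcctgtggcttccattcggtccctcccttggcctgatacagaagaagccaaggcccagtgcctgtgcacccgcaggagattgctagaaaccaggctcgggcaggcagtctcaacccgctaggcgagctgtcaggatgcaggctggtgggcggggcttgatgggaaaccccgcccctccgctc
Srebf1 1c start: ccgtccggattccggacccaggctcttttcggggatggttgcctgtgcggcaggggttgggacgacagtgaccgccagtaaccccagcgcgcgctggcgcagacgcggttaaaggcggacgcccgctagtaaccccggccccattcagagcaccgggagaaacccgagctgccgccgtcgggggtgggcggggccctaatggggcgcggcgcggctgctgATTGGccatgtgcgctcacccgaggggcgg

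In Hmgcs1 the sterol regulatory element TCACCCCAC began at position -137 from the start, with CCAAT boxes at -237, -176 and -45 in the stretch shown. It was the 1 gene of 25 with this element, against 1.44% of all 27025 genes that have windows. A CCAAT box was present in at least 1 window of 20 of the 25 genes, 80% against 41.1% of all genes. By window it was present in 21 of 33, against 37.4% of all windows. The Insig2 stretch shown is the most upstream of its windows, and the others of that gene held no CCAAT box. A GC box (GGGCGG) was present in 21, 84% against 38.2%, and an E-box in 5, 20% against 8.09%. Member windows had a median C and G content of 62% against 52.7% over all 32851 windows, and its part in these shares was not tested. Mvd held CCAAT boxes at -60 and -27, and Fasn held 3, at -90, -62 and -59, of which the last 2 overlap. The 1a stretch of Srebf1 held none, while that of the 1c start held 1, at -30. The stretch of Acaca held none of the capitalised motifs. It is at an internal start, and no window was given at the outer end of the gene, chr11:84129672. The absence of a CCAAT box there therefore does not describe the outer promoter of Acaca. The other genes without a CCAAT box were Acat2, Elovl6, Fads2 and Scap. A match is a description of the letters and not of binding, and no match says only that the letters are not in these windows.

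Of the 32 genes, 31 were at 1 TPM (a level per transcript length, scaled to a fixed library total) or more in every library, against 17.3% of all genes and 41.6% of protein-coding genes. Their median level was 7.88 ± 0.84 TPM (SD, n = 3), close to the 7.09 ± 0.41 TPM of the 9944 genes averaging at least 1 TPM. On a scale set to protein-coding genes alone the same medians were 32.5 ± 4.2 and 29.2 ± 0.3, because protein-coding genes held only 23.5% to 25.6% of the deposited TPM. The 32 genes together summed to 494, 644 and 577 TPM in replicates 1, 2 and 3, which is 0.209%, 0.274% and 0.225% of protein-coding TPM, highest in replicate 2. Gene counts totalled 33825547, 54667365 and 43176007 in the same order, so replicate 2 was also the deepest.

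Macrophage markers were high in all libraries, led by Lyz2 at 4563 to 5414 TPM. Summed macrophage markers were 9002, 7840 and 8676 TPM in replicates 1, 2 and 3. Of 6 neutrophil markers the sum was 23.6, 37.9 and 35.9 TPM, with Ly6g at 0, and 4 of the 5 tested were higher in replicate 2 than in replicate 1. The 4 T and NK cell, 4 erythroid and 6 stromal and fat cell markers each summed to at most 0.24 TPM in every library. Dendritic cell markers summed to 2.07, 2.27 and 2.16 TPM in replicates 1, 2 and 3, most of it Batf3, which was lowest in replicate 2 at 1.65, 1.32 and 1.63 TPM. The other dendritic markers were low but highest in replicate 2, with Siglech at 0.27, 0.57 and 0.31 TPM, Flt3 at 0.09, 0.22 and 0.15 TPM and Zbtb46 at 0.06, 0.16 and 0.07 TPM. B cell markers to 4.47 to 5.74 TPM.

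**Figure D1:**
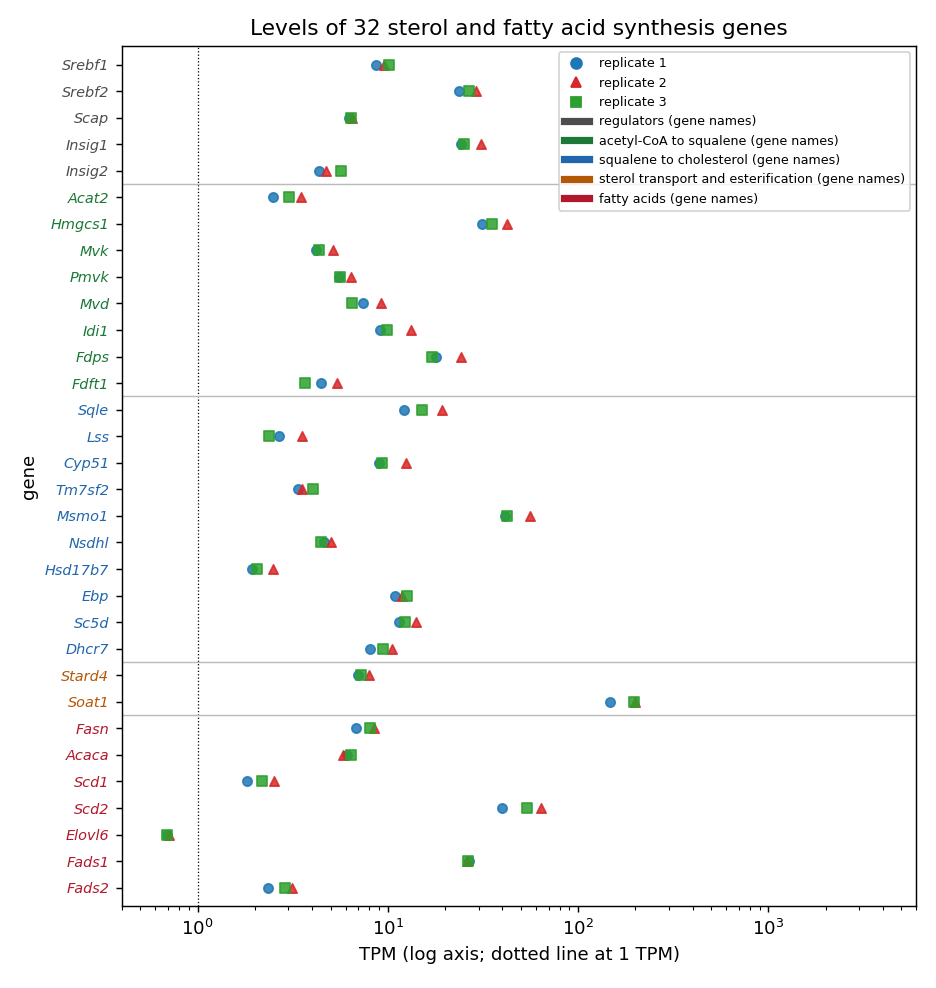
Level of each of the 32 genes in TPM (log axis) in replicates 1, 2 and 3, with gene names coloured by role. Soat1 is highest at 147.78 to 198.01 TPM, Elovl6 alone lies below the dotted line at 1 TPM, and the triangle of replicate 2 lies to the right in most sterol genes.

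Among the 5 regulators, Srebf2 and Insig1 were the highest and Insig2 the lowest by mean level. Srebf2 was at 23.65, 28.94 and 26.77 TPM in replicates 1, 2 and 3. Srebf1 stood lower, at 8.61, 9.54 and 10.14 TPM. The 2 genes did not overlap, and in deposited TPM Srebf2 was highest in replicate 2 and Srebf1 in replicate 3. Scap, the escort, was the steadiest regulator, at 6.26, 6.46 and 6.41 TPM. Insig1, an SREBP target that itself retains SCAP, was at 24.34, 31.04 and 25.17 TPM, high in replicate 2 and alike in the others. Insig2, its homologue with the same action on SCAP, was at 4.37, 4.71 and 5.66 TPM, highest in replicate 3.

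The 8 listed enzymes from acetyl-CoA to squalene were all highest in replicate 2 in deposited TPM, as were 10.6% of genes averaging at least 1 TPM. Acat2, which joins 2 acetyl-CoA, was the lowest of them at 2.50, 3.49 and 3.01 TPM. Hmgcs1, HMG-CoA synthase, was the highest at 31.11, 42.47 and 35.35 TPM. Its 3 libraries span a 1.37-fold range. Mvk, mevalonate kinase, had 4.19, 5.15 and 4.33 TPM. Pmvk, which adds the next phosphate, had 5.55, 6.38 and 5.58 TPM. Mvd, the decarboxylase that makes isopentenyl diphosphate, had 7.40, 9.19 and 6.47 TPM. In Mvd replicate 3 rather than replicate 1 was lowest, as in Fdps and Fdft1. Idi1, the isomerase of isopentenyl diphosphate, had 9.09, 13.27 and 9.87 TPM. Fdps, farnesyl diphosphate synthase, had 17.88, 24.13 and 16.95 TPM. Fdft1, squalene synthase, had 4.47, 5.38 and 3.66 TPM. Across these 8 genes the TPM ratio of replicate 2 to replicate 1 was 1.15 to 1.46 and that of replicate 2 to replicate 3 was 1.14 to 1.47.

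From squalene to cholesterol, 8 of 10 listed enzymes were highest in replicate 2 in deposited TPM, against 10.6% of genes averaging at least 1 TPM. Sqle, squalene epoxidase, a rate-controlling oxygenase, had 12.13, 19.32 and 15.11 TPM. At 1.59-fold between its highest and lowest library it had the widest range of all members. Lss, lanosterol synthase, had 2.69, 3.52 and 2.38 TPM. Cyp51, the lanosterol demethylase, had 9.01, 12.39 and 9.26 TPM. Both genes were highest in replicate 2, and replicates 1 and 3 lay closer together, by ratio, in Cyp51 than in Lss. Msmo1, the C4-methyl sterol oxidase, was the highest sterol enzyme, at 41.24, 55.54 and 42.28 TPM. Nsdhl and Hsd17b7 complete the removal of the C4 methyl groups. Nsdhl had 4.64, 5.04 and 4.46 TPM. Hsd17b7 was the lowest enzyme of this group, at 1.92, 2.48 and 2.04 TPM. Sc5d, the sterol C5 desaturase, had 11.46, 13.97 and 12.28 TPM. Dhcr7, which takes the last step of one branch to cholesterol, had 8.01, 10.51 and 9.47 TPM. The exceptions were Tm7sf2, a C14 sterol reductase, and Ebp, the sterol isomerase, both highest in replicate 3. Tm7sf2 had 3.37, 3.53 and 4.03 TPM. Ebp had 10.91, 11.85 and 12.65 TPM.

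Soat1, which esterifies cholesterol for storage in lipid droplets, was the highest member at 147.78, 198.01 and 196.12 TPM, above 97.9% of genes averaging at least 1 TPM. It made up 29.9% to 34.0% of the summed TPM of the 32 genes, and replicate 1 was its low library. Soat2, its homologue of liver and gut, was at 0.03 to 0.04 TPM. Stard4, a cytosolic sterol carrier, had 6.94, 7.97 and 7.19 TPM.

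Among fatty acid enzymes, Scd2 was the highest at 39.83, 63.40 and 54.04 TPM, with replicate 2 highest and replicate 1 lowest. It is a stearoyl-CoA desaturase, which makes monounsaturated fatty acids. Its homologue Scd1, the main form in liver, followed the same order at a far lower level, 1.82, 2.51 and 2.19 TPM. Fads1, the delta-5 desaturase of polyunsaturated fatty acids, was nearly level at 26.76, 26.06 and 26.31 TPM. Fads2, the delta-6 desaturase, had 2.35, 3.14 and 2.88 TPM. Acaca, acetyl-CoA carboxylase 1, was also nearly level at 6.07, 5.84 and 6.43 TPM. Fasn, fatty acid synthase, had 6.81, 8.43 and 8.10 TPM. Elovl6, which elongates palmitate, was the lowest member, at 0.69, 0.71 and 0.69 TPM.

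Whether libraries differed beyond counting error was tested gene by gene by setting the rounded expected counts against effective library sizes in a chi-square test, with Benjamini-Hochberg adjustment over 13494 genes and a threshold of 0.05. This test counts every difference between replicates larger than sampling, and 49.2% of all genes passed it. Of the 32 members, 28 passed. Of the members, 27 passed and were highest in replicate 2 in counts over effective library size, which held for 11.6% of all genes tested. In deposited TPM 25 kept this order. Srebf1 and Acaca were instead highest in replicate 3 in TPM, and Acaca was lowest in replicate 2. The 28th, Fads1, passed and was highest in replicate 1, which held for 19.9% of all genes tested. The members that did not pass were Insig2, Tm7sf2, Ebp and Elovl6. Without replicate 2 the count of members that differed fell to 11. Of these, 6 were higher and 5 lower in replicate 3 than in replicate 1, against 20.6% and 20.3% of 12682 genes.

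Compared in pairs, 24 members were higher in replicate 2 than in replicate 1, against 16.7% of 12914 genes, and 26 were higher in replicate 2 than in replicate 3, against 12.7% of 12785. No member was lower in replicate 2 by the same chi-square tests, in either pair, against 17.7% and 14.8% of genes. At an unadjusted p under 0.05 this count was also 0, and with DESeq2 size factors in place of edgeR's TMM it stayed 0 in both pairs. Between replicates 3 and 1, in contrast, 6 members were higher in replicate 3 (20.6% of 12682 genes) and 5 were lower (20.3%). The 6 were Srebf1, Srebf2, Sqle, Soat1, Fasn and Scd2. The 5 were Mvd, Fdps, Fdft1, Lss and Fads1.

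The differences were small. In counts over effective library size, Sqle in replicate 2 was 1.59 times replicate 1 and 1.40 times replicate 3. Scd2 was 1.59 and 1.28 times, Fdps 1.38 and 1.57 times, and Mvd 1.26 and 1.56 times. Hmgcs1 was 1.37 and 1.32 times, and Msmo1 1.33 and 1.39 times. Srebf2 moved less, at 1.24 and 1.18 times. Both passing the test and spanning 1.5-fold were 6 members, 18.8% of them, against 13.3% of genes. In TPM no member spanned 2-fold (3.59% of genes), and Sqle and Scd2 alone spanned 1.5-fold (9.14%). A negative binomial fit over the 3 libraries gave all genes a common coefficient of variation of 14.4%. The median coefficient of variation of TPM was 13.6% over the members and 8.35% over genes averaging at least 1 TPM.

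**Figure D2:**
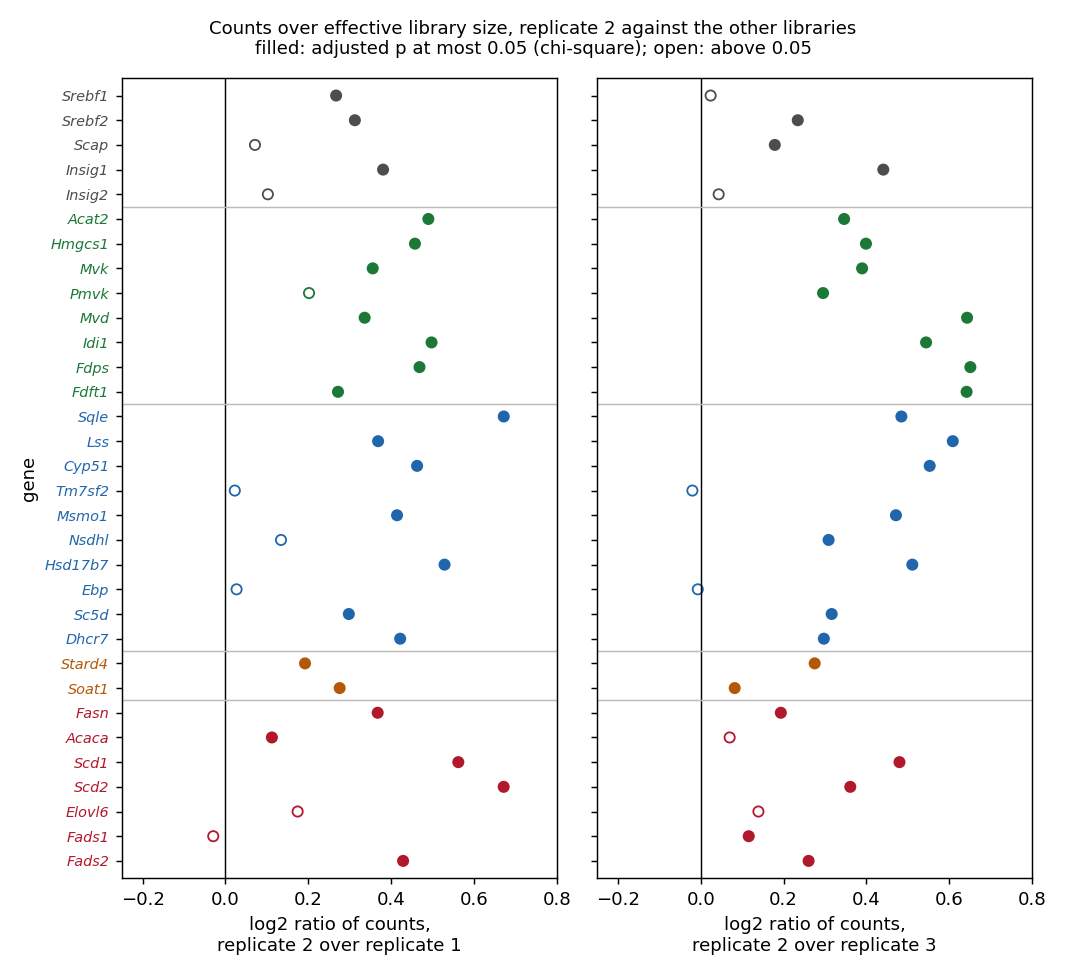
Log2 ratio of counts over effective library size, replicate 2 over replicate 1 (left) and over replicate 3 (right), for each gene in its role's colour. Filled points passed the chi-square test of that pair (24 on the left, 26 on the right). Nearly all points lie right of 0. The points left of it are Fads1 in the left panel and Tm7sf2 and Ebp in the right panel, all open.

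On the deposited TPM scale the members' log2(TPM + 1) lay a median of 0.15 above their own mean in replicate 2, while all genes averaging at least 1 TPM lay at -0.04. In replicates 1 and 3 the members lay at -0.12 and -0.01 and all genes at -0.03 and 0.07. Of the 31 members with such a mean, 27 were above their own mean in replicate 2, as were 26.7% of genes. In deposited TPM 25 of 31 members were highest in replicate 2 against 10.6% of genes. That scale favours replicate 3, which was highest for 66.1% of genes. With TPM over protein-coding genes the members highest in replicate 2 were 27 of 31, against 26.7% of genes. With counts over effective library size they were 28 of 31, against 29.4%, and with read-based TPM 23 of 31, against 24.3%.

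Other measures also moved with replicate 2 or another library, and their part in the pattern was not tested. Depth was highest in replicate 2. The neutrophil sum was lowest in replicate 1. Of 4 dendritic markers, 3 were higher in replicate 2 than in replicate 1 by the pair test and 2 than in replicate 3. Of 8 macrophage markers, 6 were lower and 1 was higher in replicate 2 than in replicate 1, and 4 were lower and 2 higher than in replicate 3. Cell division genes, 18 of 18, peaked in replicate 3, where they summed to 173.69 TPM against 82.39 and 95.26 TPM in replicates 1 and 2. Nuclear RNAs, led by Malat1, summed to 918, 480 and 400 TPM, highest in replicate 1. Of 12 ribosomal protein genes, 8 passed the pair test as higher in replicate 2 than in replicate 1 and 11 as higher than in replicate 3, although their summed TPM was lowest in replicate 2.

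Genes that process SREBP or bind beside it were tested as a list that shares no gene with the members. Of these 14 genes, 4 differed between the 3 libraries, 1 was lower in replicate 2 than in replicate 1, and 1 was higher and 3 were lower in replicate 2 than in replicate 3. In TPM 12 were highest in replicate 3 and 2 in replicate 1. The NF-Y and USF partners included Usf2 at 27.19, 23.28 and 25.39 TPM and Nfya at 21.17, 20.13 and 22.56 TPM. These calls use counts over effective library size, whose order can differ from that of TPM. Usf2 was the gene called higher in replicate 2 than in replicate 3, although its TPM was lower there. Of 11 other sterol pathway genes 8 had enough counts to test. Of these, 2 were higher in replicate 2 than in replicate 1, and 1 was higher and 1 lower than in replicate 3. Por, which passes electrons to Cyp51 and Sqle, was the highest of them, at 98.42, 134.83 and 145.33 TPM, lowest in replicate 1. Of 6 genes of acetyl-CoA and NADPH supply, 2 were higher and 1 was lower in replicate 2 than in replicate 1, and 3 were higher than in replicate 3. Pgd was the highest of these, at 59.87, 58.32 and 60.52 TPM. By counts it was among those called higher in replicate 2 than in replicate 3. Among 18 other fatty acid enzymes, 14 were tested. In replicate 2, 3 were higher and 1 lower than in replicate 1, and 3 higher and 2 lower than in replicate 3. Tecr, the last enzyme of elongation, led them at 42.38, 37.22 and 38.88 TPM. It too was called higher by counts in replicate 2 than in replicate 3.

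The oxysterol and LXR genes, a list linked to the handling of surplus sterol that includes the receptor genes themselves, were mostly highest in replicate 3. In deposited TPM this held for all 7 of them averaging at least 1 TPM, on a scale where it held for 66.1% of genes. In counts over effective library size Nr1h2 was instead highest in replicate 2 and Rxra in replicate 1. Abca1, a cholesterol exporter, had 96.94, 111.95 and 143.15 TPM. Abcg1, which exports cholesterol to mature lipoprotein, had 46.80, 50.56 and 60.50 TPM. In both genes replicate 1 was lowest. By the pair test 2 genes of the list were higher and 1 was lower in replicate 2 than in replicate 1, and 3 were lower in replicate 2 than in replicate 3. The difference between this list and the sterol enzymes was not tested.

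Related genes were set side by side within each library. The added 1 keeps part of the scale in these differences, and on TPM over protein-coding genes Scd2 minus Scd1 was 4.43 and Fads1 minus Fads2 3.14. Srebf2 exceeded Srebf1 by 1.39 ± 0.10 on the log2(TPM + 1) scale (SD, n = 3), a TPM ratio of 2.64 to 3.03. Insig1 exceeded Insig2 by 2.23 ± 0.26, a ratio of 4.45 to 6.59. Scd2 exceeded Scd1 by 4.05 ± 0.18, a ratio of 21.9 to 25.3. These 3 pairs had the same order in all 3 libraries. Fads1 exceeded Fads2 by 2.86 ± 0.18, a ratio of 8.30 to 11.4. The median of the 18 sterol enzymes exceeded that of the 7 fatty acid enzymes by 0.40 ± 0.23, at 7.71, 9.85 and 7.87 TPM against 6.07, 5.84 and 6.43 TPM. Fasn exceeded Acaca by 0.30 ± 0.16, but the read-based quantification reversed this order to -0.33, so their order is not settled. Each of the 6 differences kept its sign in 3 of 3 libraries, with an exact two-sided sign-flip p of 0.25, adjusted 0.25, the smallest that 3 libraries allow.

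**Figure D3:**
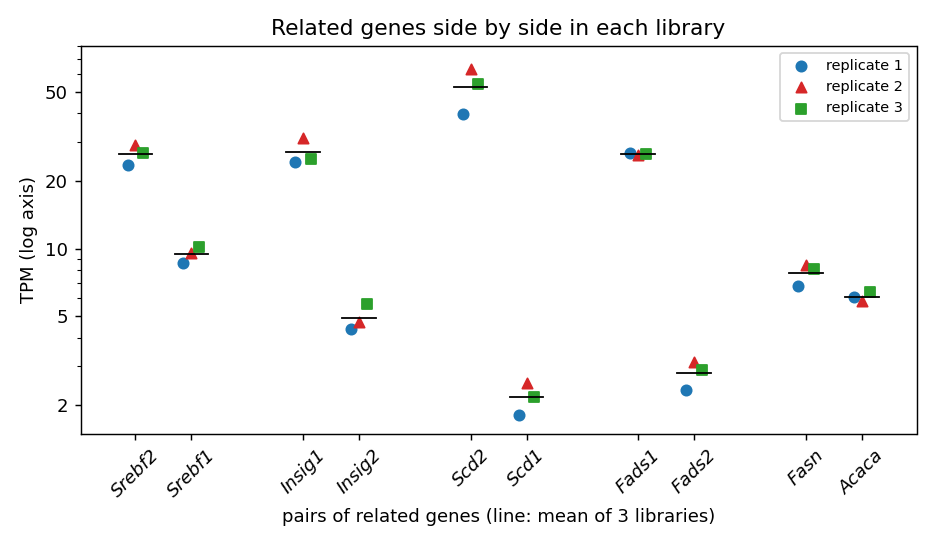
TPM (log axis) of 5 pairs of related genes in replicates 1, 2 and 3, with a line at the mean of 3 libraries. Scd2 and Scd1 lie farthest apart (21.9-fold to 25.3-fold), and Fasn and Acaca lie closest.

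Srebf1 begins at alternative first exons. Srebf1-201, with its first exon at chr11:60220453-60220604, begins at the 1a start and codes for 1134 residues. Srebf1-207, with its first exon at chr11:60210336-60210465, begins at the 1c start, with 9987 bases between the 2 first exons, and its annotated coding end was not found. Srebf1-201 was at 5.96, 7.0 and 7.66 TPM and held 72.7% ± 3.2 of the gene's TPM (SD, n = 3). Srebf1-207 was at 0.29, 0.41 and 0.60 TPM and held 4.53% ± 1.29. The 1a transcript was therefore 20.6, 17.1 and 12.8 times the 1c transcript in replicates 1, 2 and 3. In the read-based table the shares were 52.9% ± 6.6 and 11.4% ± 3.5, and the ratios fell to 6.25, 4.48 and 3.96. The 1a transcript was higher in every library of both quantifications. The annotated 1c transcript ends 1374 bases before the 1a transcript, so reads from that stretch could be assigned to 1a and not to 1c whichever start made them, and the size of the ratio is uncertain. Srebf1-204, a noncoding transcript from the most upstream start, held 7.09% ± 1.58, or 22.1% ± 4.8 in the read-based table.

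**Figure D4:**
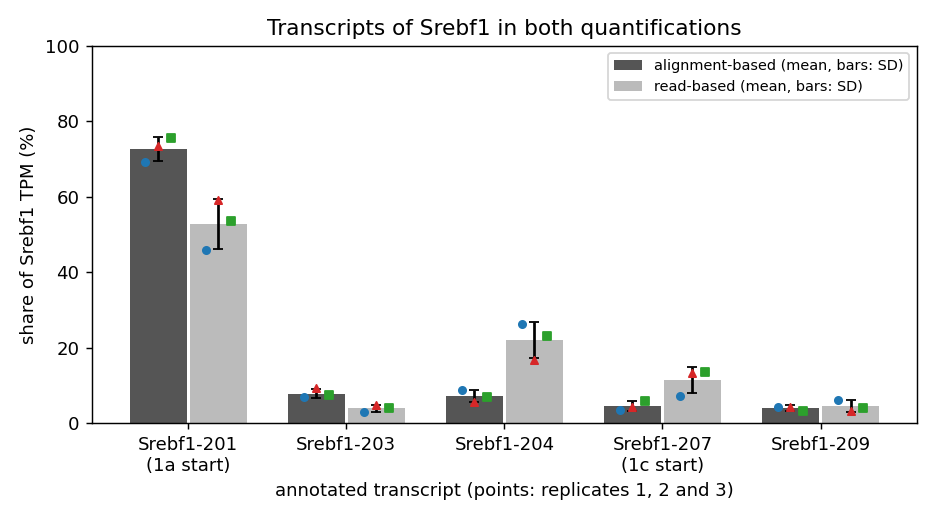
Share of the TPM of Srebf1 in 5 of its annotated transcripts, alignment-based (dark) and read-based (light), as mean and SD of 3 libraries with each library as a point. The 1a transcript Srebf1-201 is the largest share in both (72.7% and 52.9%), and the 1c transcript Srebf1-207 holds 4.53% and 11.4%.

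Transcripts annotated as other than protein-coding held little of most members. These include transcripts marked for nonsense-mediated decay, which can have a coding sequence, such as Mvd-202, the whole of such a share in Mvd. Over the 21 members averaging at least 5 TPM, the median share was 0.574% ± 0.087 (SD, n = 3), against 1.90% ± 0.59 over 5893 genes. In 4 members the share exceeded 10%, as in 24.6% of genes. Msmo1 stood highest at 37.1% ± 4.2 (21.2% ± 5.7 in the read-based table), nearly all in Msmo1-206, a processed transcript that held 36.3% ± 4.2. Srebf2 had 17.9% ± 1.4, mainly in the retained-intron transcript Srebf2-205. Fasn had 17.4% ± 2.3 but 0.768% ± 1.330 in the read-based table. Srebf1 had 14.9% ± 5.0, and 31.9% ± 10.7 in the read-based table.

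Read-based levels of the members lay close to alignment-based levels when both were scaled over protein-coding genes. None of the 22 members averaging at least 5 deposited TPM, or the read-based equivalent, differed 2-fold, against 3.98% of 6432 genes. Acaca differed most of the 22 by ratio, at 34.5 read-based against 25.2, and the short coding transcript Acaca-206 of 431 bases held 39.1% ± 2.6 of it in the read-based table and 25.8% ± 4.5 in the other (SD, n = 3). Soat1 was at 952 read-based and 744 alignment-based.

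**Figure D5:**
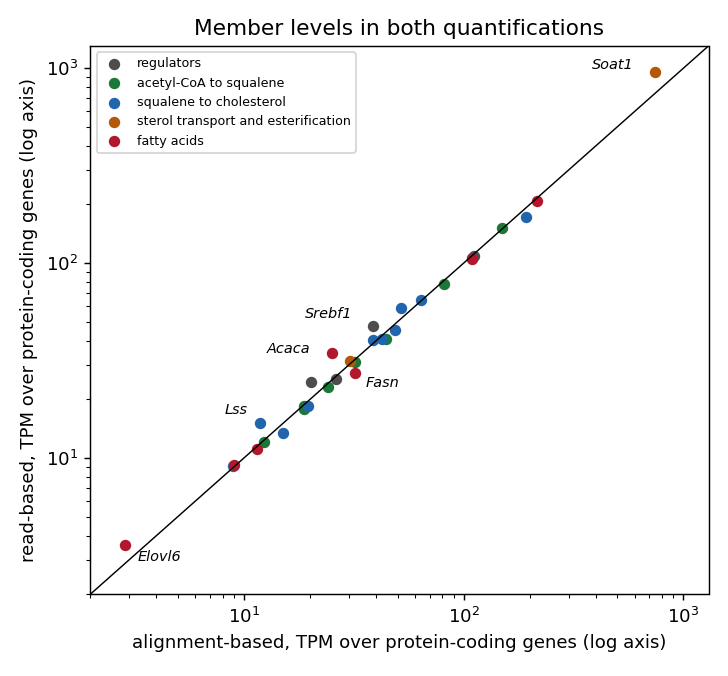
Mean level of each gene in the read-based against the alignment-based quantification, both as TPM over protein-coding genes on log axes, coloured by role, with the line of equality. Points lie along the line, with Acaca (34.5 against 25.2) and Soat1 (952 against 744) above it and Fasn (27.4 against 32.1) below.

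Some members share sequence with other genes, which makes their levels depend on how reads were assigned. Of all 31-base words in its transcripts, Acat2 shared 43.7%, all with Acat3, a neighbour listed at 0.04 TPM or less. Acaca shared 33.5%, mostly with the processed pseudogene Gm5182. Fdft1 shared 31.9%, in part with Ctsb, which overlaps it on the opposite strand and was far higher, at 2375 to 2738 TPM. Words were matched on both strands, and whether counting used strand is not given in the sources used here, so the level of Fdft1 is uncertain. Fdps shared 27.9% and Idi1 27.1%, and the partner of Idi1 with most words, Gm13502, was at 0.31 to 1.49 TPM. Fads1, Insig2, Mvd, Fasn, Ebp, Nsdhl and Pmvk shared none. Of these 7, Mvd, Fasn, Nsdhl and Pmvk passed the test and were highest in replicate 2, which held for 11.6% of all genes tested. Fads1 passed and was highest in replicate 1, and Insig2 and Ebp did not pass. The part of shared reads in the pattern was not tested.

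Of the 20 genes with a CCAAT box in a promoter window, 17 passed the test and were highest in replicate 2 by counts. Of the 5 without one, 4 did so, and of the 7 with no window, 6 did so. The same held for 84.4% of all members and 11.6% of all genes tested. The TPM ratio of replicate 2 to replicate 1 was 1.05 to 1.46 over the 20 and 0.96 to 1.40 over the 5. The ratio of 0.96 was that of Acaca, which was highest in replicate 2 by counts but not in TPM. The only window of Acaca is at an internal start within the gene. The difference between these groups was not tested.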

How the data were processed

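Total RNA-seq of 3 libraries of 1 group was analysed: the 32 members and all lists were chosen with earlier results of these data known. The gene table and a transcript table give expected counts and TPM, made by the authors from transcriptome alignments (mm10, M21), per the file headers and accompanying notes. A read-based transcript table holds estimated counts and TPM, deposited by the authors for the same build. Aligner, quantifiers, versions and strandedness: not given in the sources used here. TPM is scaled over all entries, so abundant short RNAs move all genes.

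Expected counts were rounded, with entries that name no Ensembl gene left out. Genes whose counts summed to at least 30 were tested by chi-square against TMM effective library sizes (edgeR 4.0.16, R 4.3.3), with Benjamini-Hochberg adjustment at 0.05. DESeq2 1.42.0 size factors were an alternative. Differences used log2(TPM + 1), pseudocount 1, which understates low genes, and exact sign-flip permutation. The chi-square test was tested on simulated data with counting error as the only noise, so the simulation says nothing of wider spread between libraries. All members are named, with up to 3 highest and 2 lowest genes of each other list, apart from some not reported here. Alternatives omitted each replicate or changed the pseudocount (0.1), filters, scale and quantification. Precision rests on 33825547 to 54667365 gene counts a library, and the chi-square p-values treat counting error as the only noise.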

Additional observations from a re-analysis of the deposited data

How the results depend on the processing

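Of 104 alternatives run, 94 kept the direction and side of the threshold of their result. The list median was 32.5 over protein-coding genes and 33.7 read-based, since the scale differs, and 7.41 to 8.23 TPM with 1 replicate left out. Members differing between libraries numbered 11 to 26 with 1 replicate left out, and 6 where 1.5-fold was also required. They were fewest without replicate 2, where 20.6% of genes were higher and 20.3% lower in replicate 3 than in replicate 1. The count of members that differed and were highest in replicate 2 was added after seeing the data, with its alternatives. It was 24 without replicate 3, against 16.7% of genes, and 26 without replicate 1, against 12.7%. It was 28 read-based but 6 where 1.5-fold was also required, and the shares of all genes for these are not given here. Members spanning the fold limit rose from 0 to 2 at 1.5-fold. Fasn minus Acaca reversed to -0.33 read-based; the cause was not tested. The members' median shift in replicate 3 was -0.01 and ran from -0.082 to 0.046 with 1 replicate left out, reversed without replicate 2. Read-based values were 52.9% for the share of Srebf1-201 and 1.52% for the median share in transcripts other than protein-coding. The cause was not tested. No paired analysis was possible because the series has 1 group. With 3 libraries the sign-flip p cannot fall below 0.25. Dixon's test was not applied, since it needs at least 4 samples.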
